A study of Mus musculus with 30 samples.

Results

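The comparison described here set 10 AOM/DSS-treated mice, killed 15 weeks after the start of treatment, against 10 vehicle-treated mice, 5 females and 5 males in each group. These 20 libraries, of the 30 in the series, were chosen by their titles, the 15-week AOM/DSS and the vehicle mice of both sexes. All were C57BL/6J WT mice. The labels give no age at the start, and the authors state 5 to 10 weeks for the experiment without the age of each mouse. AOM/DSS mice received 1 intraperitoneal dose of azoxymethane (AOM, 10 mg/kg), a carcinogen that alkylates DNA, followed by 3 cycles of dextran sulfate sodium (DSS, 2.5% in drinking water), a polymer that injures the colon epithelium. Vehicle mice were injected with saline and killed at 9 weeks. No vehicle library was labelled 15 weeks, so treatment and 6 further weeks of age cannot be told apart in this comparison. The 10 AOM/DSS mice killed at 9 weeks, soon after the last DSS cycle, entered the same model as a reference for what persisted and what appeared late. RNA came from an epithelial-layer scrape of the colon, 1 library per mouse.

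Repeated DSS injury on an AOM background is a model of colitis-associated tumorigenesis. During such colitis, interferon-gamma from lymphocytes acts on colon epithelium, which then displays MHC molecules and produces chemokines and guanylate-binding proteins. Neutrophil-attracting chemokines and nitric oxide synthase belong to the acute reaction, while crypt stem cells marked by Lgr5 renew the epithelium after the injury. The question put to the data was which of these programmes were still altered at 15 weeks, after weeks without DSS.

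Depth ranged from 9265804 to 29776556 counts per library among the 20 compared libraries. The mitochondrial share of the counts was 3.95 to 15.6% in vehicle (median 7.88%), 4.01 to 11.9% at 9 weeks (median 5.07%) and 4.57 to 22.96% at 15 weeks (median 8.62%). Epithelial markers identified the tissue: the mean level of 12 pan-epithelial genes was 9.18 to 9.89 log2 CPM in vehicle and 9.59 to 10.25 at 15 weeks. A pair of libraries stood apart. Male vehicle replicate 1 held 43046 counts of Myh11, the smooth muscle myosin, whereas the next vehicle library held 875. Male 15-week replicate 5 held 10805 counts of the pancreatic protease gene Ctrb1, and no other 15-week library held more than 15. Results that rest on either library are given with and without it.

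A gene was called differentially expressed (DEG) at a Benjamini-Hochberg adjusted p below 0.05 in edgeR's quasi-likelihood test, an absolute log2 fold change above 0.4 and a mean FPKM of at least 1 in either group. By this rule 1194 of 16261 tested genes (7.34%) differed between 15 weeks and vehicle, of which 550 were higher (3.38%) and 644 lower (3.96%). Without both libraries that stood apart, 504 genes were called, 258 higher and 246 lower. At 9 weeks, 876 genes were higher than in vehicle (5.39%) and 449 lower (2.76%). The 9-week and 15-week contrasts share the 10 vehicle libraries. In all, 570 genes were DEGs in the same direction at both times, 346 higher and 224 lower, which is 47.7% of the 15-week DEGs and 43.0% of the 9-week DEGs. Without both libraries 356 genes met this definition. None was called in opposite directions. Of the 346 persisting genes that were higher, 53 were also lower at 15 than at 9 weeks by the direct contrast, and 516 of all 570 had no called change between the times. In that direct contrast, 62 genes were higher (0.381%) and 262 lower (1.61%) at 15 weeks.

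The plot of gene lists gives the course of each programme. The median log2 fold change of all tested genes was -0.0266 at 15 weeks, so list medians can be read against a value near 0. Counts of called members can be read against 3.38% higher and 3.96% lower among all tested genes.

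**Figure D1:**
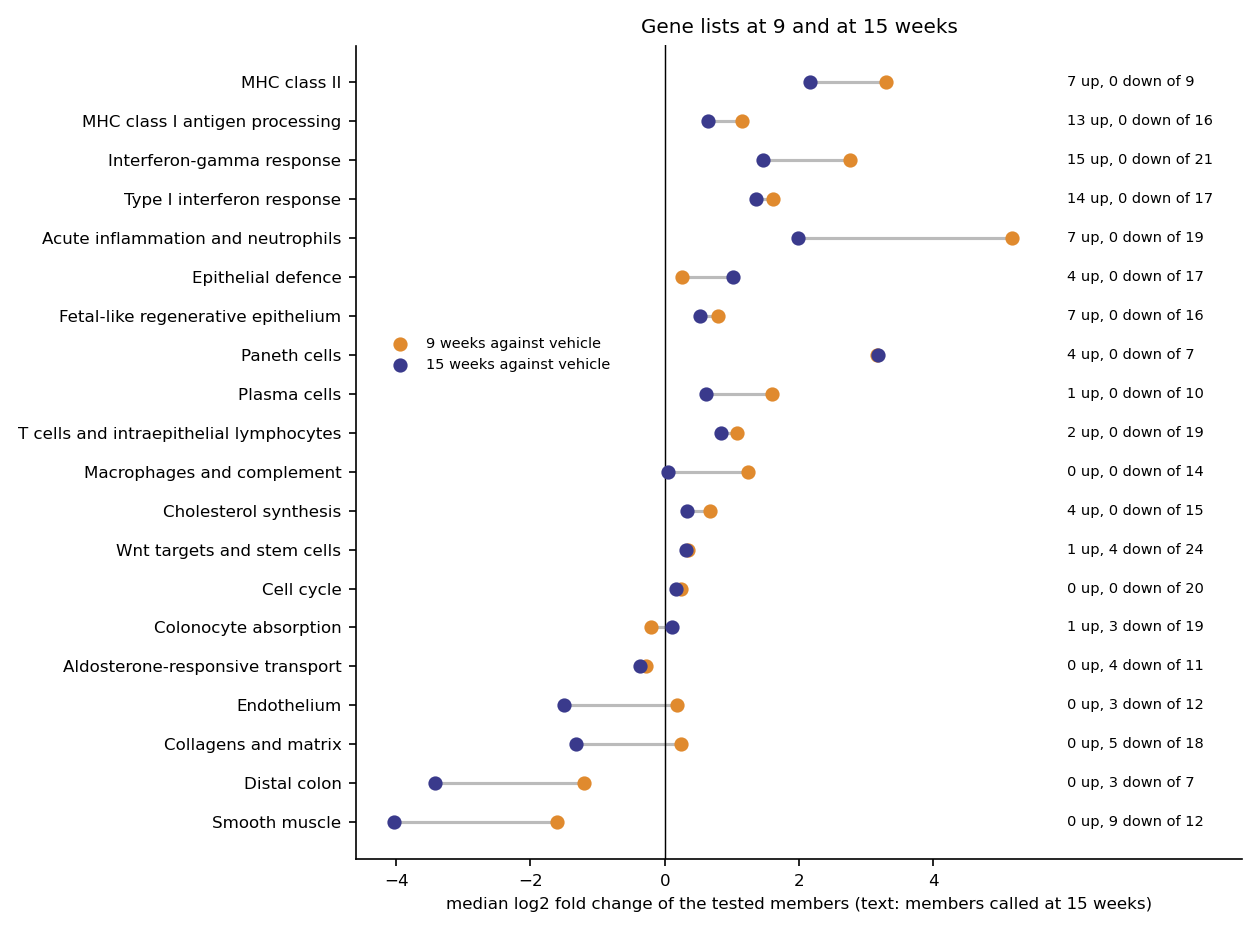
Median log2 fold change of the tested members of 20 gene lists at 9 weeks (orange) and 15 weeks (blue), each against the same 10 vehicle libraries. The text beside each row counts the members called at 15 weeks, and the MHC and interferon lists sit to the right of 0 at both times with 7 of 9, 13 of 16, 15 of 21 and 14 of 17 members higher.

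MHC class II genes, whose products present peptides to CD4+ T cells, were still far above vehicle. Of 9 tested members, 7 were higher at 15 weeks and none lower, against 3.38% of all genes, with a list median of 2.17 (3.30 at 9 weeks). The same count of 7 was found without both libraries that stood apart and in each of the 20 fits that left out 1 library. H2-DMb1, a chain of the chaperone that loads peptides onto class II molecules (mm10, chromosome 17, 34153072 to 34160230), was 0.723 to 2.68 FPKM in vehicle (median 1.37) and 2.30 to 24.2 FPKM at 15 weeks (median 10.3). On the log2 CPM scale all 10 treated mice lay above all 10 vehicle mice, and the log2 fold change was 3.07 ± 0.41 (SE, edgeR adjusted p = 4.02e-05).

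Cd74, the invariant chain that occupies the class II groove before loading, was 6.90 to 86.3 FPKM in vehicle (median 45.0) and 41.3 to 606 FPKM at 15 weeks (median 270). Its log2 fold change was 3.06 ± 0.47 (edgeR adjusted p = 0.00019). The groups overlapped through female 15-week replicate 1, at 41.3 FPKM, and male 15-week replicate 1, at 76.2 FPKM, which were also the lowest 15-week libraries for Ciita, the master transactivator of class II genes. Ciita itself rose from a median of 0.364 FPKM in vehicle to 1.54 FPKM (log2 fold change 2.02 ± 0.42, edgeR adjusted p = 0.0028). H2-Ab1, a class II beta chain, was 3.23 to 23.8 FPKM in vehicle (median 13.5) and 16.002 to 152 FPKM at 15 weeks (median 66.7), higher than the highest vehicle mouse in 8 of 10 treated mice. H2-DMa rose with its partner H2-DMb1, by 2.14 ± 0.30. The 2 members not called were H2-DMb2 at 0.12 and Ctss, a lysosomal protease of antigen presenting cells, at -0.10. None of the 9 members was called between 15 and 9 weeks by the direct test, in which the list median was -0.80.

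B cells and macrophages also carry class II genes, and a scrape of the mucosa can hold both. None of 15 B cell genes and none of 14 macrophage genes was called at 15 weeks, with list medians of 0.09 and 0.05, and 0 and 2 members were at an unadjusted p below 0.05 in edgeR. Over all tested genes 7.34% were called, so 0 calls in lists this short is not far from that share. The mean level of the B cell list ran from -1.0 to 2.76 log2 CPM in vehicle and from -0.86 to 3.44 at 15 weeks, and that of the macrophage list from 0.13 to 3.79 and from 0.82 to 2.81. The macrophage value of 3.79 was that of male vehicle replicate 1, and the next vehicle library was at 2.89. Both ranges overlap over most of their length. In bulk tissue, more cells of a type and more RNA per cell cannot be told apart.

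Class I antigen processing genes, which supply peptides to the MHC molecules of most cells, had a smaller list median. Of 16 tested members 13 were higher and none lower (median 0.64, 1.15 at 9 weeks), and 11 were higher without both libraries. Psmb8, a catalytic subunit of the immunoproteasome, was 5.54 to 16.9 FPKM in vehicle (median 9.86) and 16.2 to 39.6 FPKM at 15 weeks (median 24.4), a log2 fold change of 1.57 ± 0.19 (edgeR adjusted p = 1.63e-05). In FPKM, 9 of the 10 treated mice were above the highest vehicle mouse. Psmb9, its partner subunit, separated the groups completely, at 4.50 to 8.66 FPKM in vehicle and 8.68 to 22.8 FPKM at 15 weeks. Tap1, a subunit of the peptide transporter of the endoplasmic reticulum, rose by 1.41 ± 0.22. Nlrc5, the transactivator of class I genes, had the largest change of the list, from a median of 0.184 to 1.31 FPKM (log2 fold change 3.03 ± 0.38, edgeR adjusted p = 2.08e-05). Psmb9, Tap1 and Nlrc5 were nonetheless lower at 15 than at 9 weeks, by 0.83, 0.90 and 1.47 on the log2 scale, and 7 members of the list fell in that contrast. Reads of the near-identical H2-Q6 and H2-Q7, both at 1.83, may have been split between them in counting.

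The interferon-gamma response list had 15 of 21 members higher at 15 weeks and none lower (median 1.46). At 9 weeks 20 were higher (median 2.76), and 15 fell from 9 to 15 weeks. The count of 15 was the same without both libraries. Igtp, an immunity-related GTPase, was 1.43 to 4.94 FPKM in vehicle (median 3.06), 6.77 to 49.8 FPKM at 9 weeks (median 28.5) and 3.72 to 24.5 FPKM at 15 weeks (median 9.10). Only 1 of 10 treated mice at 15 weeks fell within the vehicle range, and the log2 fold change was 2.0 ± 0.28 (edgeR adjusted p = 5.92e-05). Cxcl9, a chemokine for T cells induced by interferon-gamma, had one of the 12 largest rises of all DEGs, from a median of 0.126 to 1.74 FPKM (log2 fold change 3.75 ± 0.52). Ubd, a ubiquitin-like modifier, rose by 2.47 ± 0.38. Irf1 was 44.5 to 83.5 FPKM in vehicle and 57.2 to 96.1 FPKM at 15 weeks, and with a log2 fold change of 0.35 ± 0.11 (edgeR adjusted p = 0.0286) it stayed below the fold threshold. Cxcl10 was not called either (1.15 ± 0.48, edgeR adjusted p = 0.0908), with 9 of 10 treated mice above the vehicle median, and was called without male vehicle replicate 3 (1.41, edgeR adjusted p = 0.0493). It was looked up after its values were seen.

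The type I interferon list had 14 of 17 members higher (median 1.35, 1.62 at 9 weeks) and none lower, with 12 higher without both libraries. The 15-week median was 0.93 in females, with 1 member called, and 1.64 in males, with 16 called. The difference between the sexes was called in 0 of the 17 by edgeR and had an unadjusted p below 0.05 in 8. Only 3 members fell from 9 to 15 weeks. Zbp1, a sensor of Z-form nucleic acids (mm10, chromosome 2, 173206612 to 173218923), was 5.11 to 13.0 FPKM in vehicle (median 8.45) and 13.3 to 40.4 FPKM at 15 weeks (median 21.3). No treated mouse reached down to the vehicle range, and the log2 fold change was 1.5 ± 0.19 (edgeR adjusted p = 1.63e-05). Ifit2, which binds foreign RNA, rose by 2.72 ± 0.38 and had a median of 0.858 FPKM in vehicle, 18.7 FPKM at 9 weeks and 3.43 FPKM at 15 weeks. Oasl1 stood at 11.4, 22.7 and 21.3 FPKM, and its 15-week rise of 0.93 ± 0.16 differed from the 9-week one by 0.08 (edgeR adjusted p = 0.767). Rtp4 rose by 1.23 ± 0.19.

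Zbp1 acts upstream of the necroptosis kinase Ripk3 and its substrate Mlkl. Both genes, looked up after the values of Zbp1 were seen, were higher as well. Ripk3 was 6.87 to 13.0 FPKM in vehicle (median 11.4) and 11.5 to 28.4 FPKM at 15 weeks (median 18.0), with a log2 fold change of 0.90 ± 0.13 (edgeR adjusted p = 7.76e-05). Mlkl was 4.34 to 9.51 FPKM in vehicle and 8.05 to 15.1 FPKM at 15 weeks, with a log2 fold change of 0.69 ± 0.12 (edgeR adjusted p = 0.000403).

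**Figure D2:**
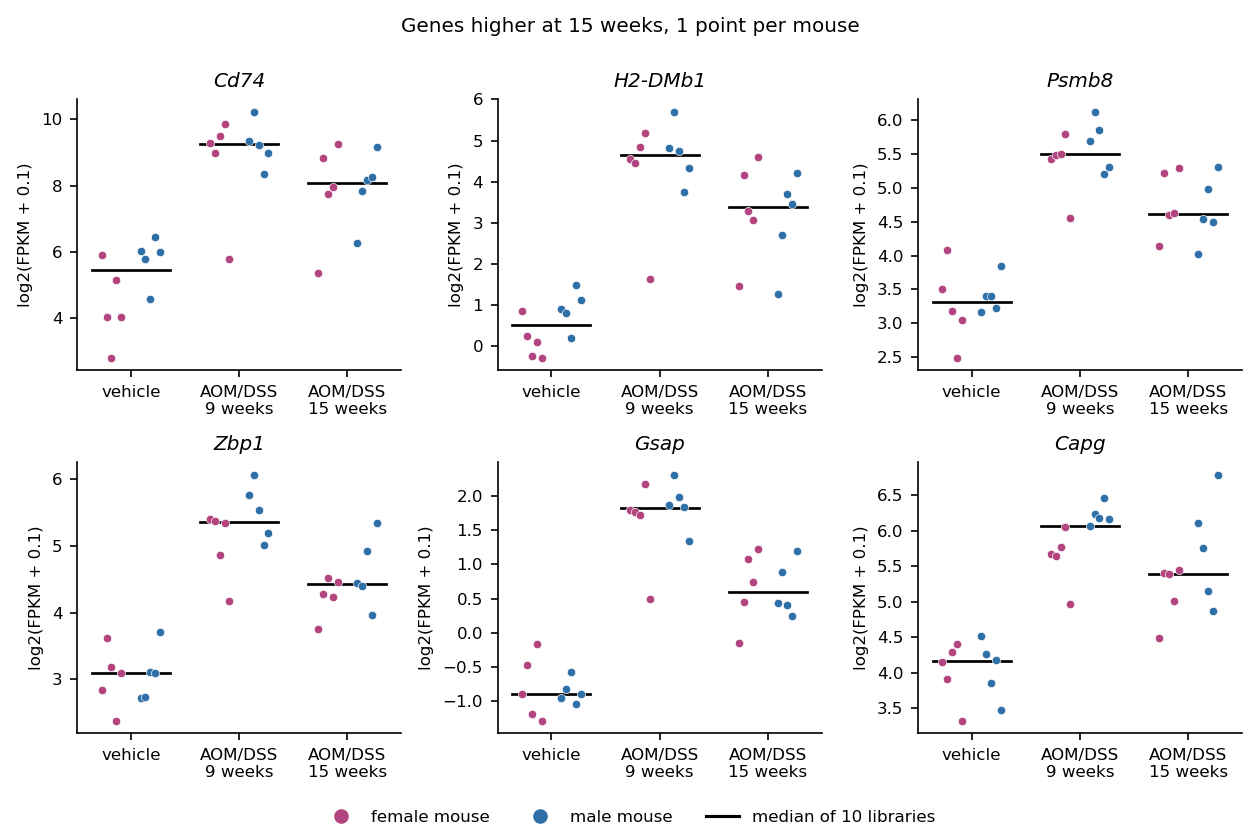
Level of 6 genes in each of 30 mice, as log2(FPKM + 0.1), in vehicle, 9-week and 15-week AOM/DSS groups, with females in pink, males in blue and the median of 10 libraries as a bar. Every 15-week median lies between the vehicle and the 9-week median, and the 15-week mice of Zbp1 and Gsap do not overlap the vehicle mice.

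The start regions of these genes were read from RefSeq (GRCm38.p6) to see which of them carry the sequence classes that interferon factors are known to bind. The 250 bases before the start of each gene were searched on both strands for GAAA followed after 2 bases by GAAA, the core of the element bound by interferon regulatory factors, and for TTCNNNGAA, the core of the gamma-activated sequence. Where a gene had more than 1 listed start, a match at any of them counted. Of all 27025 genes of the table, 3.46% held the first and 8.13% the second. Of the 15 interferon-gamma list members with an entry, 11 held the first and 7 the second, and of 11 type I members 6 and 2 did so. Of 14 class I members, 2 held the first, and of 6 class II members 1 did. Among the 346 genes higher at both times, 234 had an entry, of which 11.5% held the first motif and 9.40% the second. A match is a description of letters and not a site of binding.

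The start regions of 3 genes are printed because they show both motifs, the first alone and the second alone, in a gene that rose, in one that was not called and in one below the fold threshold. Capitals mark the motif matches, and each run is the strand of the gene. The Igtp run is chr11:58199306-58199555 on the plus strand, the Cxcl10 run chr5:92348890-92349139 on the minus strand and the Irf1 run chr11:53769764-53770013 on the plus strand.
Igtp: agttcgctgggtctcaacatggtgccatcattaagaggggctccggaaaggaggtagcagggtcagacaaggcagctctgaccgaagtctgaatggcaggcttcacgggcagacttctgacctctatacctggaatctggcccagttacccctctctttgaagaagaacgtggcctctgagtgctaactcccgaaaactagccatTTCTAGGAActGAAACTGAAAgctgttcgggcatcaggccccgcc
Cxcl10: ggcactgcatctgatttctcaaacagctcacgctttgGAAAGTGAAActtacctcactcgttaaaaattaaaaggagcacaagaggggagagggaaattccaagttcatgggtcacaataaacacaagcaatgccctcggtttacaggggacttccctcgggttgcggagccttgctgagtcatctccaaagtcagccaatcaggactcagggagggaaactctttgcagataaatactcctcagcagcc
Irf1: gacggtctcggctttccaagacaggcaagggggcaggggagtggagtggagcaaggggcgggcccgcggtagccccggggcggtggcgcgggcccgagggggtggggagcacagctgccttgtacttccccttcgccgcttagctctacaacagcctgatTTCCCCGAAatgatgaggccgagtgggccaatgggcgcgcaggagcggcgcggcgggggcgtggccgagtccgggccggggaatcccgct

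The acute inflammation list had the largest fall of all 36 list medians from 9 to 15 weeks, -3.33 on the log2 scale. Of 19 tested members, 14 were higher at 9 weeks (median 5.18) and 7 at 15 weeks (median 1.99), none was lower, and 10 fell from 9 to 15 weeks. The 15-week count was 2 without male 15-week replicate 5, 3 without both libraries that stood apart, and 4 without any one of female vehicle replicates 1 and 5 or male vehicle replicates 2, 4 and 5. Nos2, the inducible nitric oxide synthase, was 0.322 to 1.67 FPKM in vehicle (median 0.843), 5.87 to 59.4 FPKM at 9 weeks (median 31.4) and 0.948 to 15.0 FPKM at 15 weeks (median 4.99). The highest 15-week value was that of male replicate 5, and 9 of 10 treated mice were above every vehicle mouse, and the log2 fold change was 2.83 ± 0.40 (edgeR adjusted p = 7.76e-05). Nos2 fell by 2.14 from 9 to 15 weeks on the log2 scale (edgeR adjusted p = 0.00427). Tnf, the inflammatory cytokine, was higher by 1.66 ± 0.34 and fell by 1.49 from 9 weeks. Lcn2, an iron-sequestering antimicrobial protein, had a median of 0.171 FPKM in vehicle and 0.179 FPKM at 15 weeks. Its called log2 fold change of 3.43 ± 0.98 rested on male 15-week replicate 5 at 16.2 FPKM, without which it was 1.71 (edgeR adjusted p = 0.197). S100a8, a neutrophil calcium-binding protein, was at 6.12 FPKM in that library and at most 2.60 FPKM in the other 15-week libraries (3.74 ± 0.97, edgeR adjusted p = 0.0121). Without male vehicle replicate 1, at 0.810 FPKM the highest vehicle library, its log2 fold change was 5.69, and without male 15-week replicate 5 it was 3.09 with mean FPKM below the minimum.

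In all, 175 genes were DEGs at 9 weeks, not at 15 weeks, and moved back between the times by the direct test, and 13 of them had been lower and the rest higher at 9 weeks. They were 13.2% of the 9-week DEGs. Ptgs2, the inducible cyclooxygenase, had the largest fall among those that had risen, from a median of 2.43 FPKM and a highest value of 28.4 FPKM at 9 weeks to at most 0.426 FPKM at 15 weeks, where vehicle reached 0.608 FPKM. Its log2 fold change from 9 to 15 weeks was -5.6 (edgeR adjusted p = 0.00361). Clec4e, a receptor of myeloid cells, changed by -5.12, Ccl3, a chemokine of myeloid cells, by -5.07, and Il1a, an alarmin cytokine, by -4.47. The neutrophil chemokines Cxcl2 and Cxcl3 changed by -4.54 and -4.52. Cxcl2 and Cxcl3 were not called at 15 weeks because their mean levels were under 1 FPKM, although 7 of 10 treated mice exceeded every vehicle mouse for Cxcl2, which was 0 to 1.65 FPKM at 15 weeks against at most 0.0466 FPKM in vehicle. Acod1, listed as Irg1, the itaconate enzyme of activated macrophages, was likewise below the level minimum at 15 weeks (at most 0.672 FPKM) after a median of 1.83 FPKM at 9 weeks. With the percentage of mitochondrial counts as a covariate none of the 6 falls from Ptgs2 to Cxcl3 was called (edgeR adjusted p = 0.217 to 0.332), nor with a mesenchyme score (0.112 to 0.195). Over the alternatives run for them, the log2 fold change of each of the 6 stayed at -2.97 or below. The median mitochondrial percentage was lower at 9 than at 15 weeks, as given above, and its part in these falls was not tested further.

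Epithelial defence genes, which the epithelium itself makes against bacteria, had fewer members called. At 15 weeks 4 of 17 were higher and none lower, and at 9 weeks 5 were. Duox2, the epithelial NADPH oxidase that releases hydrogen peroxide, was 12.6 to 54.7 FPKM in vehicle (median 36.4), 102 FPKM in the median at 9 weeks and 30.3 to 94.1 FPKM at 15 weeks (median 62.6). Its maturation factor Duoxa2 was 5.11 to 27.6 FPKM in vehicle (median 18.5) and 15.7 to 80.3 FPKM at 15 weeks (median 46.3). Treated mice exceeded every vehicle mouse in 7 of 10 for Duox2 (log2 fold change 1.02 ± 0.21, edgeR adjusted p = 0.00276) and in 9 of 10 for Duoxa2 (1.66 ± 0.30, edgeR adjusted p = 0.000735). RNA of Pla2g2a, a phospholipase gene, rose by 2.37 ± 0.45 from a median of 3.77 to 18.9 FPKM, and its change from 9 to 15 weeks was -0.39 (edgeR adjusted p = 0.596). Protein was not measured, so whether these mice made the enzyme was not tested. Reg3b, an antibacterial lectin, varied from 0 to 1694 FPKM among vehicle mice and from 4.12 to 1349 FPKM at 15 weeks, and was not called.

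**Figure D3:**
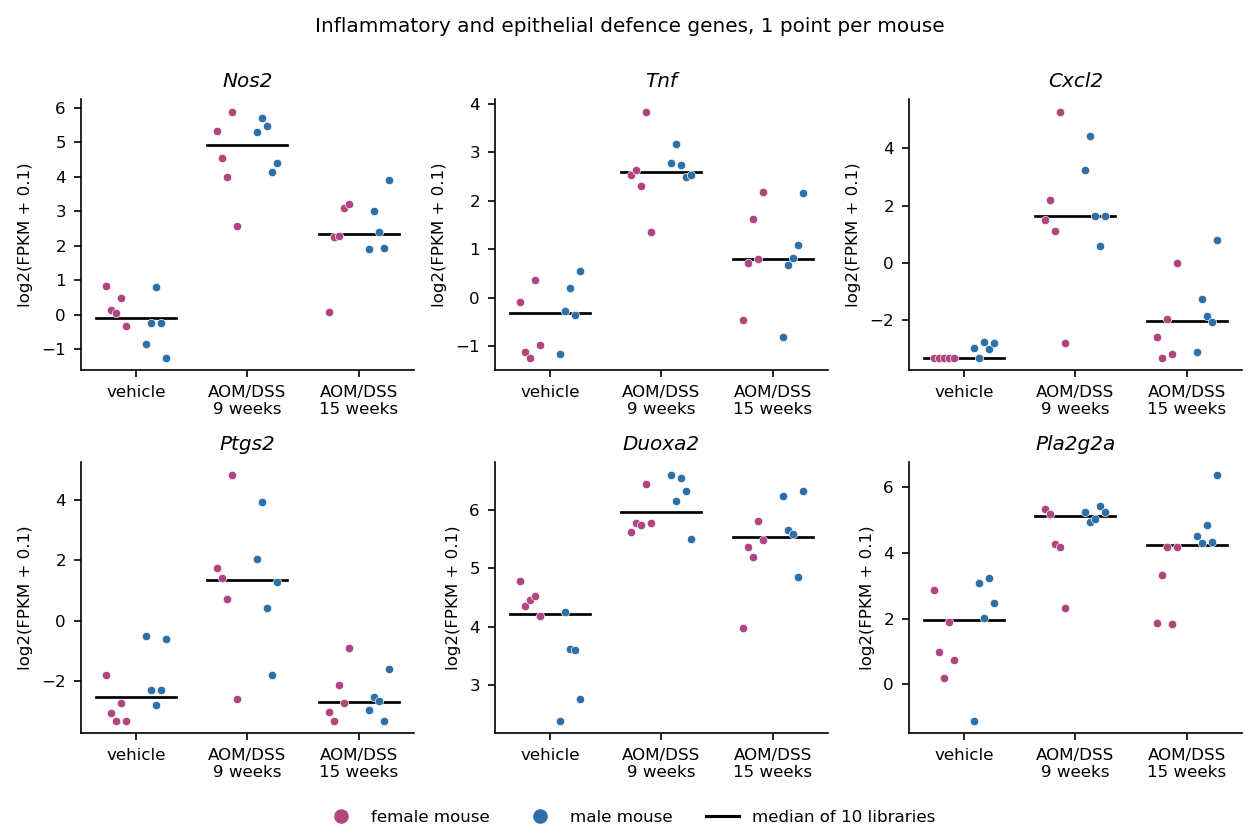
Level of 6 genes in each of 30 mice, as log2(FPKM + 0.1), by group, with females in pink, males in blue and group medians as bars. No 15-week mouse is above the vehicle range for Ptgs2, whereas 9 of 10 are above it for Nos2 and Duoxa2.

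Genes of the fetal-like regenerative epithelium, a state described in crypts that repair after injury, were higher in 7 of 16 tested members, none lower (median 0.53, 0.80 at 9 weeks), and in 4 without both libraries that stood apart. Ly6a, the surface protein Sca-1 that marks this state, was 70.0 to 167.5 FPKM in vehicle (median 94.0) and 108 to 569 FPKM at 15 weeks (median 235). It exceeded the vehicle range in 8 of 10 treated mice (1.45 ± 0.21, edgeR adjusted p = 0.000107), and interferon is also known to induce it. Areg, a ligand of the EGF receptor, rose by 0.87 ± 0.21, Itgb6, an integrin of injured epithelium, by 0.72 ± 0.13 and Tnfrsf12a, the receptor of TWEAK, by 0.85 ± 0.21. The highest vehicle value of Itgb6, 9.10 FPKM, belonged to male vehicle replicate 1, and 1 of 10 treated mice exceeded it.

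The stem cell genes Lgr5 and Smoc2 fell. Lgr5, the receptor that marks crypt base stem cells (mm10, chromosome 10, 115450311 to 115587780), was 1.18 to 2.96 FPKM in vehicle (median 2.40), 0.290 to 2.03 FPKM at 9 weeks (median 0.942) and 0 to 1.59 FPKM at 15 weeks (median 0.717). In FPKM, 7 of 10 treated mice were below every vehicle mouse, and the log2 fold change was -1.51 ± 0.35 (edgeR adjusted p = 0.00581). Smoc2, a matrix protein of the same cells, was 5.06 to 12.8 FPKM in vehicle (median 8.57) and 2.23 to 7.97 FPKM at 15 weeks (median 4.50), with a log2 fold change of -0.75 ± 0.18 (edgeR adjusted p = 0.00767). Both fell at 9 weeks as well, by 1.21 and 0.53 on the log2 scale. In all 4 of 24 tested members of the Wnt list were lower and 1 higher, while the median was 0.32. The count of 4 was 2 in 9 of the fits that left out 1 library (female vehicle replicates 1 and 5, male vehicle replicates 1, 3 and 5, female 15-week replicates 1 and 2, male 15-week replicates 1 and 5) and 2 without both libraries that stood apart, while Lgr5 and Smoc2 were called in each. Of the 24 members 15 had values above 0 and 9 below. The Wnt targets Apcdd1, Nkd1 and Wif1, called higher at 9 weeks, were at 2.45, 2.15 and 1.81 at 15 weeks (edgeR adjusted p = 0.0455, 0.051 and 0.0554) and were not called, Apcdd1 because of its mean FPKM. Without male 15-week replicate 5, the highest library of the Wnt list, they were at 1.68, 1.34 and 1.18 (edgeR adjusted p = 0.147, 0.2 and 0.178). The targets Axin2 and Ascl2 were at -0.15 and -0.21 and were not called either. None of 20 cell cycle genes was called at 9 or 15 weeks (median 0.16 at 15 weeks), and none of 14 genes of the p53 response at 15 weeks (median -0.09), by edgeR, with 2 and 3 members at an unadjusted p below 0.05 at 15 weeks. Values above 0 at 15 weeks were found in 18 of the 20 and in 6 of the 14. With 7.34% of all tested genes called at 15 weeks, 0 calls in lists this short is not far from that share.

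The 1 Wnt gene called higher was Notum, a secreted enzyme that inactivates Wnt ligands. It was 0 to 0.170 FPKM in vehicle and 14.6 FPKM in male 15-week replicate 5, with 2.95 FPKM in the next 15-week mouse and a 15-week median of 0.194 FPKM. Its log2 fold change was 3.75 ± 1.14 (edgeR adjusted p = 0.0261), and 2.78 (edgeR adjusted p = 0.0753) without that library. Without male vehicle replicates 1 or 5 it was 3.58 and 3.56 (edgeR adjusted p = 0.0528 and 0.0513).

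Paneth cell genes, which normal colon hardly expresses, were also highest in that library. Of 7 tested members 4 were higher (median 3.17) and none lower, but 2 without male 15-week replicate 5, 2 without female 15-week replicate 3, and 0 without both libraries that stood apart. Lyz1, the Paneth lysozyme, was 0.218 to 4.52 FPKM in vehicle and 0.368 to 156.9 FPKM at 15 weeks, with medians of 2.17 and 3.21 FPKM. The value of 156.9 FPKM was that of male replicate 5 and the next, 29.9 FPKM, that of female replicate 3. Without the former the log2 fold change of Lyz1 was 1.97 (edgeR adjusted p = 0.12), and without the latter 2.75 (edgeR adjusted p = 0.0515), against 3.17 ± 0.94 with both (edgeR adjusted p = 0.0235). Mmp7, the matrilysin that activates defensins, reached 51.6 FPKM in male replicate 5 and 9.02 FPKM in the next library, and its log2 fold change was 3.46 ± 0.87, or 2.09 without male replicate 5. The defensin gene Defa24 was at 0 counts in 8 of 10 vehicle libraries and at 58.4 FPKM in male 15-week replicate 5, with 5.71 FPKM next. Defensin genes have near-identical copies, so their counts are uncertain.

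Mucosal mast cell proteases were among the 12 largest rises. Mcpt1 was 0 to 0.501 FPKM in vehicle (median 0.215) and 0 to 17.6 FPKM at 15 weeks (median 1.31), above every vehicle mouse in 8 of 10 treated mice (3.72 ± 0.72, edgeR adjusted p = 0.00155). Mcpt2 rose by 4.39 ± 0.84 with 6 of 10 above. The highest value of both was in male 15-week replicate 5, and without it the log2 fold change of Mcpt2 was 3.52 (edgeR adjusted p = 0.00562) with mean FPKM below the minimum. Among lymphocytes, 2 of 19 T cell genes were called, Lck at 0.66 and Trac, the T cell receptor alpha constant region, at 0.84 ± 0.22, and the list median was 0.84. Over all tested genes 3.38% were called higher. Without female 15-week replicate 4 Trac was 0.74 and below the level minimum. Of 10 plasma cell genes Prdm1, a factor of plasma cells and also of other cells, was the 1 called (1.12 ± 0.23, edgeR adjusted p = 0.00249). Mt4, a metallothionein of squamous epithelium, was 0 to 0.270 FPKM in vehicle and 17.7 and 13.5 FPKM in male 15-week replicates 5 and 2 (4.97 ± 1.27).

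Pancreatic enzymes were high in 1 library. Ctrb1, the chymotrypsinogen gene with the highest fitted change of all DEGs (8.88 ± 2.06, edgeR adjusted p = 0.00622), was 280 FPKM in male 15-week replicate 5 and at most 0.453 FPKM in the other 15-week libraries. Without that library its log2 fold change was 0.84 (edgeR adjusted p = 0.683). The lipase Pnlip, at 116 FPKM there, the carboxypeptidase Cpa1 at 71.5 FPKM and the trypsinogen Prss2 at 133.4 FPKM did not pass the filter on low counts. They were not tested, and they were looked up after the values of Ctrb1 were seen. The origin of these reads was not tested.

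The largest falls by fold included genes of smooth muscle, a layer beneath the epithelium. Of 12 tested members 9 were lower at 15 weeks (median -4.03) and none at 9 weeks. The count was 5 without male 15-week replicate 5, and 0 without male vehicle replicate 1, in the fit of the 20 compared libraries and with the replicate block. It was also 0 with any of the 4 covariates tried (mesenchyme, distal minus proximal or clock score, or mitochondrial percentage). The mesenchyme score was the mean level of the smooth muscle and matrix lists. It adjusts these genes for themselves, so that fit cannot test them. DESeq2 gave no adjusted p to 11 of the 12, all 9 among them. Myh11 was 170 FPKM in male vehicle replicate 1, 0.0452 to 3.89 FPKM in the other vehicle mice and 0 to 1.36 FPKM at 15 weeks. Its log2 fold change was -4.69 ± 1.3 with that library (edgeR adjusted p = 0.0172) and -1.48 without it (edgeR adjusted p = 0.178). Acta2, smooth muscle actin, was -3.79 ± 1.11 and -0.99, and Synm, an intermediate filament protein, -4.90 ± 1.41 and -1.32, both not called without it. Hoxd10 and Hoxd11, position genes of the distal gut, also lost the call, from -4.02 and -4.03 to -2.51 and -2.56. The distal colon list had 3 of 7 members lower with it and 0 without it. The median of the distal colon list was -4.13 in females and -2.56 in males, with 0 members called within either sex. The part of the colon scraped was not given in the sources used here, so position and a change within the cells cannot be told apart for this list.

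**Figure D4:**
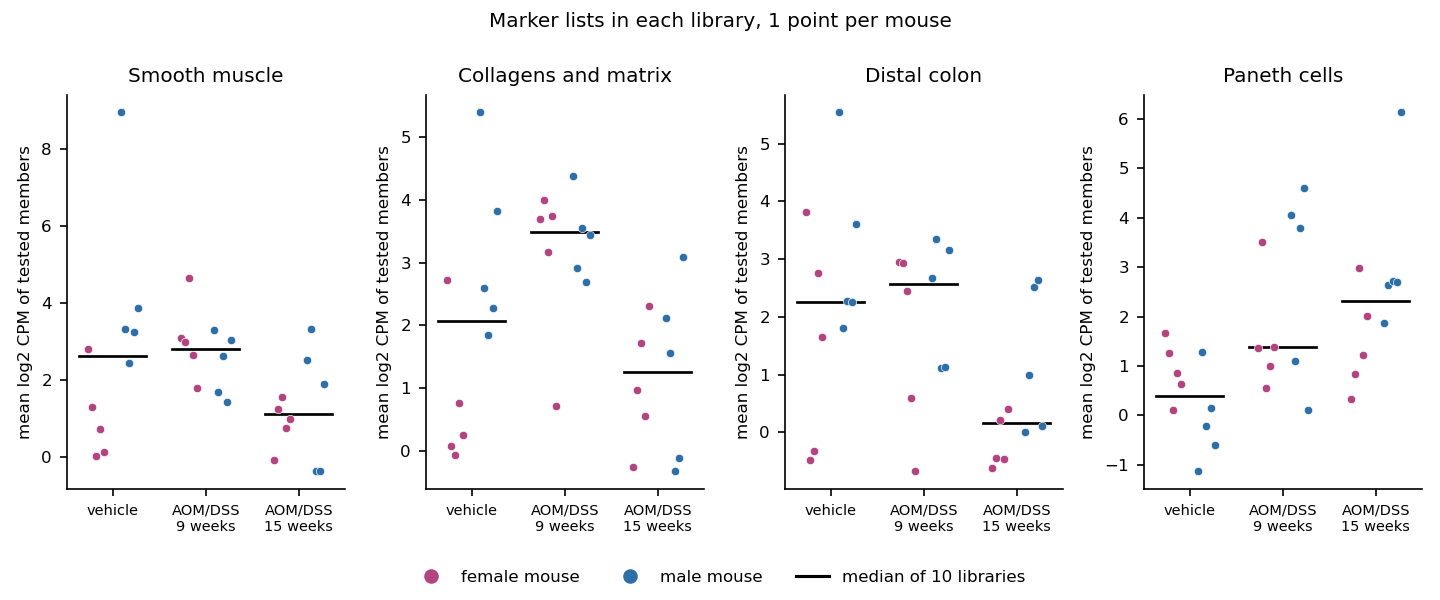
Mean log2 CPM of the tested members of 4 marker lists in each of 30 mice, by group, with females in pink, males in blue and group medians as bars. Male vehicle replicate 1 is the top vehicle point of the smooth muscle list at 8.96 (next 3.87), and male 15-week replicate 5 is the top point of the Paneth list at 6.13 (next 2.99).

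Some matrix and vessel genes were called without that library as well. Lum, the collagen-binding proteoglycan lumican, was 0.0292 to 10.9 FPKM in vehicle (median 0.891), 0.137 to 1.75 FPKM at 9 weeks (median 0.866) and 0 to 0.384 FPKM at 15 weeks (median 0.146). All 10 treated mice were below the vehicle median (-3.23 ± 0.76, edgeR adjusted p = 0.00656). Postn, periostin, was 0.825 to 75.0 FPKM in vehicle and 0.173 to 2.51 FPKM at 15 weeks (-2.80 ± 0.76, edgeR adjusted p = 0.0155), and without both libraries that stood apart its log2 fold change was -1.96 (edgeR adjusted p = 0.0651). Pecam1, the endothelial adhesion molecule, had medians of 3.005, 3.01 and 1.25 FPKM in vehicle, at 9 and at 15 weeks (-0.96 ± 0.27, edgeR adjusted p = 0.0168). Of 18 collagen and matrix genes 5 were lower, and this count was 2 in 11 of the fits that left out 1 library, among them the fits without female vehicle replicate 1, male vehicle replicates 1 and 5 and any of 8 of the 15-week mice. It was 1 without both libraries that stood apart. Of 12 endothelial genes 3 were lower, also in each fit that left out 1 library, and 2 without both. This count was 1 with the mesenchyme score as covariate and 0 with the clock or the distal minus proximal score. All 12 endothelial genes had log2 fold changes below 0. Kdr, Emcn, Tie1 and Tek (-1.78, -1.89, -2.32 and -1.83, edgeR adjusted p = 0.0350, 0.0323, 0.0252 and 0.0131) passed the p and fold thresholds. They were not called because of their mean FPKM. None of the matrix or endothelial genes was lower at 9 weeks. Less vascular and stromal tissue in a scrape and less RNA per cell cannot be told apart.

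Transport genes of the surface epithelium were split. Fxyd4, a regulator of the sodium pump that aldosterone induces in distal colon, was 0.0984 to 49.3 FPKM in vehicle (median 10.5), 0 to 4.02 FPKM at 9 weeks (median 1.19) and 0 to 2.68 FPKM at 15 weeks (median 0.480). All 10 treated mice lay below the vehicle median, and the log2 fold change was -4.24 ± 0.86 (edgeR adjusted p = 0.00241). Scnn1g, the gamma subunit of the epithelial sodium channel, was -3.30 ± 0.84, and without male vehicle replicate 1, at 18.3 FPKM, -2.11 (edgeR adjusted p = 0.0393). Of 11 aldosterone-responsive genes 4 were lower and none higher. The count was 1 without male vehicle replicate 1 or without both libraries that stood apart, and 2 without any one of male vehicle replicates 4 and 5 and male 15-week replicates 1 and 5. The receptor gene Nr3c2, which encodes the mineralocorticoid receptor, was -0.37 ± 0.12 (edgeR adjusted p = 0.0273), below the fold threshold. Without female vehicle replicate 4 or female 15-week replicate 4 it was past it, at -0.40 and -0.41.

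Of 19 genes of colonocyte absorption, 3 were lower and 1 higher. The count of 3 was 1 in the fit of the 20 compared libraries and with the distal minus proximal score or the mitochondrial percentage as covariate, and 0 with the mesenchyme or the clock score. Slc20a1, a phosphate transporter, was 58.2 to 404 FPKM in vehicle (median 173) and 18.6 to 153 FPKM at 15 weeks (median 53.6), below every vehicle mouse in 6 of 10 (-1.38 ± 0.36, edgeR adjusted p = 0.0117). Slc4a4, a bicarbonate transporter, was called lower at both times, with -0.76 ± 0.21 at 15 weeks. Slc37a2, a sugar phosphate exchanger, went from a median of 103 FPKM to 7.57 FPKM (-2.34 ± 0.72, edgeR adjusted p = 0.0269), and was -1.98 (edgeR adjusted p = 0.0591) without female vehicle replicate 1 and -2.21 (edgeR adjusted p = 0.0516) without male 15-week replicate 5. Krt20, a keratin of mature surface cells, was 235 to 576 FPKM in vehicle (median 408) and 366 to 800 FPKM at 15 weeks (median 540), a rise of 0.70 ± 0.16 (edgeR adjusted p = 0.0047). Krt18, a keratin of simple epithelia, rose by 0.56 ± 0.13 and Cldn4, a claudin of tight junctions, by 0.82 ± 0.21.

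**Figure D5:**
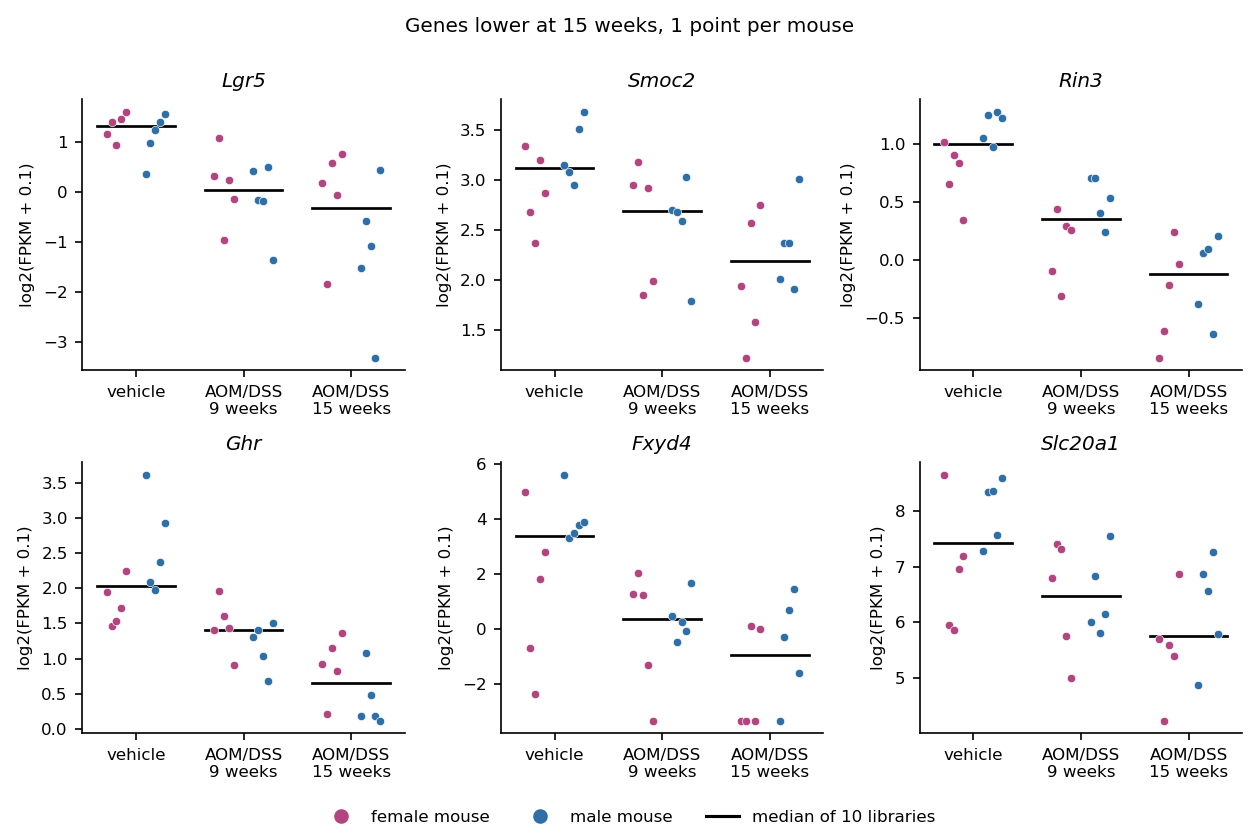
Level of 6 genes in each of 30 mice, as log2(FPKM + 0.1), by group, with females in pink, males in blue and group medians as bars. The 15-week median of each gene is the lowest of the 3 group medians, and no 15-week mouse of Rin3 or Ghr reaches the vehicle range.

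Few members of the metabolic lists were called. Cholesterol synthesis had 4 of 15 members higher at 15 weeks (median 0.34) and 9 at 9 weeks (median 0.67). Cyp51, the lanosterol demethylase, was 12.8 to 29.2 FPKM in vehicle (median 21.4), 41.9 FPKM in the median at 9 weeks and 26.2 FPKM at 15 weeks (0.54 ± 0.15, edgeR adjusted p = 0.0141). The count of 4 was 0 without both libraries that stood apart, and 1 or 2 without any one of female vehicle replicates 2 and 5, male vehicle replicates 1, 3 and 5, female 15-week replicates 2 and 3 and male 15-week replicate 5. Of 24 detoxification genes 1 was called, lower, against 3.96% lower among all tested genes. Of 10 clock genes of the day phase 1, Per3, was lower, while the median was -1.11 (-0.84 at 9 weeks). That median was 0.03 in females, with no member called, and -2.02 in males, with 5 called. The difference between the sexes was called in 0 of the 10 by edgeR and had an unadjusted p below 0.05 in 8. Male vehicle replicate 1 had the highest mean level of the list in vehicle, 6.31 log2 CPM (next 5.28), and without it the medians were -0.66 in both sexes pooled, 0.03 in females and -1.44 in males, with 2 members at an unadjusted interaction p below 0.05. With a clock score as covariate 499 genes were DEGs in place of 1194. The part of the clock genes in the other results was not tested further.

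Genes that appeared late were few. A late gene was a DEG at 15 weeks, not at 9 weeks, and a DEG in the same direction between the times, and 18 genes met this, 9 in each direction (1.51% of the 15-week DEGs). Another 606 genes were DEGs at 15 and not at 9 weeks with no called difference between the times. The number of late genes was 2 without female 15-week replicate 1, 5 without male 15-week replicate 1, 8 and 9 without female 15-week replicate 2 or male 15-week replicate 5, and 29 to 73 without male vehicle replicate 1, female vehicle replicate 3 or female 15-week replicates 3 or 5. Mrpl12, a protein of the mitochondrial ribosome, was 42.8 to 77.2 FPKM in vehicle (median 64.6), 62.3 FPKM in the median at 9 weeks and 60.4 to 99.4 FPKM at 15 weeks (median 70.0). Its log2 fold change was 0.49 ± 0.14 against vehicle (edgeR adjusted p = 0.0175) and 0.50 from 9 to 15 weeks (edgeR adjusted p = 0.0418). Dclre1c, the Artemis nuclease of DNA end joining, was 2.16 to 4.87 FPKM in vehicle (median 2.98), 3.30 FPKM in the median at 9 weeks and 1.17 to 3.04 FPKM at 15 weeks (median 2.03), with log2 fold changes of -0.56 ± 0.13 and -0.46. Pecam1 was also in this class, with -1.02 from 9 to 15 weeks, as was Ctrb1. Of the 6 largest late changes in each direction, those of Mrpl12 and Dclre1c were the smallest. Their folds at 15 weeks over vehicle were 1.41 and 0.678, against 2.39 for Hspa1b, 0.376 for Abcb1b and 0.333 for Bmp5.

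A count that needs no model was that of genes whose 10 treated libraries did not overlap the 10 vehicle libraries in log2 CPM. There were 27 such genes above (0.166% of those tested) and 12 below (0.0738%), of which 23 and 8 were DEGs. Of the 27, 10 were members of the 4 MHC and interferon lists. The genes named next were chosen from these after their values were seen. Gsap, a protein known for gamma-secretase binding (mm10, chromosome 5, 21186255 to 21315132), was 0.310 to 0.795 FPKM in vehicle (median 0.438), 1.31 to 4.86 FPKM at 9 weeks (median 3.43) and 0.804 to 2.24 FPKM at 15 weeks (median 1.42). Its log2 fold change was 1.74 ± 0.18 (edgeR adjusted p = 1.04e-06), and it fell by 0.85 from 9 to 15 weeks. Capg, an actin-capping protein, was 9.91 to 22.8 FPKM in vehicle (median 17.8) and 22.3 to 111 FPKM at 15 weeks (median 42.0), with a log2 fold change of 1.61 ± 0.20 (edgeR adjusted p = 1.88e-05).

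Among the genes below, Rin3, a Rab5 exchange factor, was 1.17 to 2.33 FPKM in vehicle (median 1.90) and 0.456 to 1.08 FPKM at 15 weeks (median 0.818), with a log2 fold change of -1.08 ± 0.13 (edgeR adjusted p = 1.5e-05). Ghr, the growth hormone receptor, was 2.65 to 12.1 FPKM in vehicle (median 3.99) and 0.985 to 2.46 FPKM at 15 weeks (median 1.48), with -1.41 ± 0.21 (edgeR adjusted p = 0.000126). Bex4 was 0.720 to 3.99 FPKM in vehicle (median 2.57) and 0 to 0.786 FPKM at 15 weeks (median 0.248), with -2.99 ± 0.48 (edgeR adjusted p = 0.000259). Each had also fallen at 9 weeks, by 0.73, 1.07 and 2.59 on the log2 scale, so these losses were present at both times.

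The sexes were pooled with sex as an additive term. In the model with 1 coefficient per group of sex and treatment, 15 genes were DEGs within females (0.0922%) and 1438 within males (8.84%). Of the 15, 14 were also among the 1438, in the same direction. The difference between the sexes itself was called in 1 gene of 16261 (0.00615%) by edgeR, with 1242 genes at an unadjusted p below 0.05 and 7 calls by DESeq2, so the unequal counts do not show unequal responses. That gene was Ahrr, the repressor of the aryl hydrocarbon receptor, with a log2 fold change of 0.87 in females and -2.23 in males (edgeR adjusted p of the difference 0.0353). It was at most 0.251 FPKM in any vehicle and 0.102 FPKM in any 15-week mouse, and 14 of 20 fits that left out 1 library lost the call, with adjusted p up to 0.121. H2-DMb1 rose by 3.51 in females and 2.63 in males, Zbp1 by 1.34 and 1.65, and Gsap by 1.62 and 1.88. Rin3 was called in both, at -1.03 and -1.12. Lgr5 was -1.35 and -1.69 and Fxyd4 -4.62 and -4.02, called in males alone. Duoxa2 had a log2 fold change of 0.88 in females, where it was not called, and 2.55 in males, and the difference did not pass the test (edgeR adjusted p = 0.44). An unadjusted interaction p below 0.05 in edgeR was found in 11 of 12 smooth muscle genes (medians -0.56 in females, -5.22 in males). It was found in 7 of 18 matrix genes (-0.14, -2.16) and in 0 of the 9 class II and 16 class I genes. Male vehicle replicate 1 was the highest vehicle library of the smooth muscle and matrix lists.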

How the data were processed

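RNA of the colon epithelial-layer scrape of 30 mice was sequenced from stranded, poly-A selected libraries. The submitters' processing notes name bcl2fastq (2.20.0.422), CASAVA, Trim Galore, STAR, featureCounts, StringTie and mm10; the other versions and the strand setting of the counting were not given in the sources used here. The authors deposited raw counts per gene, from featureCounts, and FPKM (length- and depth-scaled fragment levels) per gene, from StringTie. FPKM and counts came from different programs and can differ for 1 gene, and FPKM was used only for levels and the expression minimum. The TPM values that the authors deposited, from the same StringTie runs, were not used here. The per-base coverage that the authors deposited with them was not used here either. Every per-sample column was matched to 1 library (0 unmatched).

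Counts of all 30 libraries were filtered with filterByExpr, TMM-normalized and fitted with edgeR 4.0.16 (R 4.3.3, limma 3.58.1) by robust quasi-likelihood, with condition and sex as terms (26 residual degrees of freedom). P-values were adjusted by Benjamini-Hochberg over all 16261 genes. The SE of a log2 fold change is its size over the square root of the F statistic, and log2 CPM used a prior count of 2. A second model with 1 coefficient per sex and condition gave the values by sex and the interaction. Scores used as covariates were mean levels of list members in each library. They were smooth muscle with matrix genes (mesenchyme), distal minus proximal colon genes, and day-phase minus night-phase clock genes. No 2 replicates of a group were copies (60 pairs, Spearman rho 0.941 to 0.994), and each is 1 mouse. In simulated counts of this comparison (16086 genes), 96% of 50 genes were called at each true log2 change of -1, 1 and 2, and 100% of 50 at -2. A further 8 calls were false (3.96% of all calls). The changed genes had mean counts of at least 50. No sex difference, outlying library or FPKM minimum was simulated, so recovery of genes at low counts was not tested. DESeq2 1.42.0 was an alternative.

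Genes were named by a rule: the 12 largest changes in each direction among DEGs, up to 4 members of each gene list by lowest p plus its first member, the 6 largest late genes in each direction and persisting genes, and the 6 largest falls from 9 to 15 weeks among resolved genes, leaving out unnamed gene models and immunoglobulin or T cell receptor segments. The rule gave the genes to choose from, and not every one of them is described in the text. Genes named outside the rule are said to be so, here or in the text: H2-DMb2, Ctss, H2-Q6, H2-Q7, Ripk3, Mlkl, Reg3b, Apcdd1, Nkd1, Wif1, Axin2, Ascl2, Cxcl10, Ahrr, Kdr, Emcn, Tie1, Gsap, Capg, Rin3, Ghr, Bex4, Pnlip, Cpa1 and Prss2. The comparison, its members and the lists were chosen with earlier results of these data known. Figures were drawn with matplotlib 3.10.9. Some items are not reported here.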

Additional observations from a re-analysis of the deposited data

Results flagged for a closer look

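For 71 named genes, looked at in the 10 vehicle and in the 10 15-week libraries, a single library lay far from the other 9 in 12 groups, or 8.45%, by Dixon's criterion. Its nominal rate is about 1 in 20 for independent groups. Many of these genes were named for large changes or after their values were seen, so the share cannot be compared with that rate. Male vehicle replicate 1 was the far library in 7 of the 12 groups. It was the highest vehicle library for Acta2 (495 FPKM), Myh11 (170 FPKM), Synm (18.5 FPKM), Slc4a4 (32.5 FPKM), Itgb6 (9.10 FPKM) and S100a8 (0.810 FPKM), and the lowest for Lgr5 (1.18 FPKM). Male 15-week replicate 5 was far above the other treated mice for Ctrb1 (280 FPKM) and far below them for Slc4a4 (2.38 FPKM). Synm was highest in male 15-week replicate 2 (0.212 FPKM), Ciita lowest in female vehicle replicate 3 (0.0474 FPKM) and Defa24 highest among vehicle in female vehicle replicate 2 (0.482 FPKM).

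The response of Ahrr differed between the sexes by the interaction test (edgeR adjusted p = 0.0353), at the low levels given above.

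Genes outside the tests because of low counts in the other libraries reached over 1000 counts in male 15-week replicate 5 and at most 8 counts in any vehicle library. They were the digestive enzyme genes Pnlip (7350 counts), Cpa1 (4895), Prss2 (4729), 2210010C04Rik (4304), Cela2a (3926), Cel (3062), Cela3b (2915), Try5 (2444) and Try4 (2196), and Reg2 (1386). The trypsinogen genes have close copies, so reads may have been split among them.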

How the results depend on the processing

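The number of 15-week DEGs, 1194 (550 higher, 644 lower), was 343 (51.6% higher, against 46.1%) at a log2 threshold of 1, 2249 (1150, 1099) with none and 1862 without the FPKM minimum (1175 lower). It was 706 (304 lower) with the mesenchyme score as covariate, 561 (308, 253) with the distal minus proximal score, 499 (301, 198) with the clock score and 790 (389 lower) with the mitochondrial percentage. The 20 compared libraries fitted alone gave 802 (367 lower), and the contrast within females 15 (13, 2). The fit without both libraries that stood apart, chosen after seeing the data like the mitochondrial covariate, gave 504 (258, 246). DESeq2 gave 1394, RLE size factors 1199 and no filter 985. Persisting genes, 570, were 958 with no fold threshold, 182 at a threshold of 1, 328 with the clock score and 356 without both libraries. Late genes, 18, were 79 by DESeq2, 7 with no filter, 79 without the FPKM minimum, 48 and 5 with no threshold and a threshold of 1, 8 with the clock score, 0 with the mesenchyme, distal minus proximal or mitochondrial covariate and 11 without both libraries. The interaction was called in 7 genes by DESeq2 and 0 without both libraries. The cause of these changes was not tested.

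Leaving out 1 library at a time gave 796 to 1403 DEGs, 384 to 652 higher, 401 to 776 lower, 441 to 634 persisting genes, 2 to 73 late genes and 0 to 4 interaction calls. The lowest numbers of lower DEGs were 401 without male vehicle replicate 1 and 412 without male 15-week replicate 5. None of the 78 results for single genes that were followed over the alternatives changed sign. H2-DMb2, Ctss, H2-Q6, H2-Q7, Lck, Reg3b, Apcdd1, Nkd1, Wif1, Axin2, Ascl2, Hspa1b, Bmp5, Abcb1b, Kdr, Emcn, Tie1 and Tek were not among them.

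Counts of list members also moved. In the fit of the 20 compared libraries 1 matrix gene, 1 cholesterol gene, 2 Wnt genes and 2 aldosterone-responsive genes were called in the direction given. With the clock score 0 matrix, 0 distal colon, 0 cholesterol, 1 aldosterone-responsive, 2 Wnt, 2 Paneth and 4 acute inflammation genes were called, and with the distal minus proximal score 0, 0, 2, 1, 2, 2 and 4. The mesenchyme score gave 1 matrix, 0 distal colon, 1 cholesterol, 1 aldosterone-responsive and 2 Wnt genes, and the mitochondrial percentage 1, 0, 1, 2 and 2. The mesenchyme score holds the matrix genes and the distal minus proximal score the distal colon genes. Those fits therefore cannot test those lists. Outside the contrast within females, the counts for MHC class II, both interferon lists and epithelial defence stayed within 1.5 times.

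The replicate numbers in the titles share no stated animal or batch. Deviations of same-numbered libraries correlated at -0.482 to 0.0547, and 0 of 10 pairs matched best by number. With the replicate block there were 954 DEGs (477 higher and 477 lower), 498 persisting and 5 late genes. With 10 mice a group and vehicle at 9 weeks only, small changes and the effect of age remain unresolved.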
